A study of Mus musculus with 24 samples.

Results

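The response of wild-type M2 macrophages to dopamine (DA) was read from 6 of the 24 RNA-seq libraries of the series, chosen by their labels alone: 3 libraries of DA-treated M2 WT and 3 of untreated M2 WT bone marrow-derived macrophages (BMDMs). The cells came from C57BL/6 mice aged 10 weeks, and both groups stood for 12 h under the M2 stimulus, IL-4 and IL-13 at 10 ng/ml each. By their labels the groups differed only in DA. Whether they shared mice, cultures or batches is not stated, and such a difference could not be told apart from DA. For comparison, 6 M2 libraries of DRD5-/- cells, which lack the dopamine receptor DRD5, received the same cytokines without or with DA, and 6 M1 WT libraries came from cells given 100 ng/ml LPS with 50 ng/ml IFN-γ over the same time, without or with DA. The dose of DA is given in the methods of the study and not in the labels, and is not repeated here. The labels do not say whether the 3 libraries of a group are 3 mice, 3 cultures or 3 preparations of 1 culture, so p-values measure only the spread between these libraries, which may be technical. The tissue is labelled bone, one protocol note names colons, and the study's methods describe marrow of tibias and femurs grown in L929-conditioned medium.

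M2 is the name for macrophages polarized by IL-4 and IL-13, cytokines that signal through STAT6 and induce arginase 1, mannose receptor and other genes of tissue repair and defence against worms. Dopamine acts on 5 receptors that couple to G proteins. DRD1 and DRD5 raise cyclic AMP, the activator of protein kinase A and of the transcription factor CREB, while DRD2, DRD3 and DRD4 lower it. As a catechol, dopamine can also oxidize, and heme oxygenase 1 and glutathione synthesis are well-known parts of the answer of cells to oxidants and other electrophiles.

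The cells carried macrophage transcripts. All 10 macrophage markers had a mean of at least 1 FPKM (fragments per kilobase of transcript, scaled to the mapped fragments of the library), and their summed level was 10939 to 11107 FPKM in untreated and 8529 to 8570 in DA-treated M2 WT libraries. Of these 10, *Lyz2*, *Csf1r*, *Cd14* and *Mertk* were lower and *Itgam* was higher with DA. The markers of neutrophils (7 in the files), B cells (5), T and NK cells (7), dendritic cells (7), erythroid cells (7) and colonic epithelium (7) summed to at most 2.24 FPKM in any M2 WT library, and none of them reached a mean of 1. Osteoclast markers, of which *Ctsk* and *Acp5* led, summed to 63.7 to 66.6 FPKM without and 37.2 to 38.1 with DA, with 5 of 5 tested members lower. Stromal markers, mostly *Dcn*, summed to 134.4 to 136.7 and 111.5 to 112.3 FPKM, with 2 of 8 higher and 3 lower. Smaller sums moved as well: eosinophil markers, through *Ccr3*, from 6.40 to 6.63 up to 11.8 to 13.1 FPKM, endothelial markers, through *Kdr*, from 4.76 to 4.96 up to 7.87 to 9.15, megakaryocyte markers, through *Ppbp*, from 0.91 to 1.18 up to 2.75 to 3.32, and mast cell markers, through *Kit*, from 2.99 to 3.08 down to 2 to 2.19. The part of such cells in the results below was not tested, and in a bulk sample fewer cells of a type and less RNA per cell cannot be told apart. The study's methods name male mice. The 4 sex-specific transcripts in the files, all Y-linked, reached at most 0.41 FPKM (*Uty*) in M2 WT libraries. The sex of the cells was not tested. A library held 10380 to 10444 genes at 1 FPKM or more, its FPKM summed to 494181 to 501060, and libraries of a group correlated at r = 0.9969 to 0.998 across genes.

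The dopamine receptors lay below the range in which a change could be measured. Of the 4 receptor genes in the files, *Drd1* was the highest, with 0.25, 0.13 and 0.20 FPKM in the untreated and 0.06, 0 and 0.03 in the DA-treated M2 WT libraries. *Drd5* was listed at 0 in 4 of the 6 M2 WT libraries, had 0.06 and 0.03 FPKM in the other 2, and was at 0 in all 6 DRD5-/- libraries. These values are too low to check the deletion. Among genes that handle catecholamines, 1 of 6 tested rose and 2 fell. *Sult1a1*, a sulfotransferase of phenols, fell from 9.08, 6.93 and 8.58 to 2.48, 3.24 and 2.48 FPKM, and *Slc18a1*, a vesicular monoamine transporter, fell by 0.58 on the log2 scale.

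DA changed a large share of the measured genes. A gene was called when it changed by 1.2-fold or more with a limma adjusted p below 0.001, the cutoff of the study. Of 10735 genes tested, 4971 were called, which is 46.3%: 2782 (25.9%) were higher and 2189 (20.4%) lower in DA-treated M2 WT cells. Most changes were small. The median absolute change of the called genes was 0.52 on the log2(FPKM + 1) scale, the scale of all changes given here, which understates changes of low genes. A change of at least 2-fold was seen for 626 genes, of which 357 rose and 269 fell. The 3 treated and the 3 untreated values did not overlap for any called gene, nor for 76.0% of all genes tested, a share that shows how narrow the spread within a group was (median SE of a change 0.05).

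**Figure D1:**
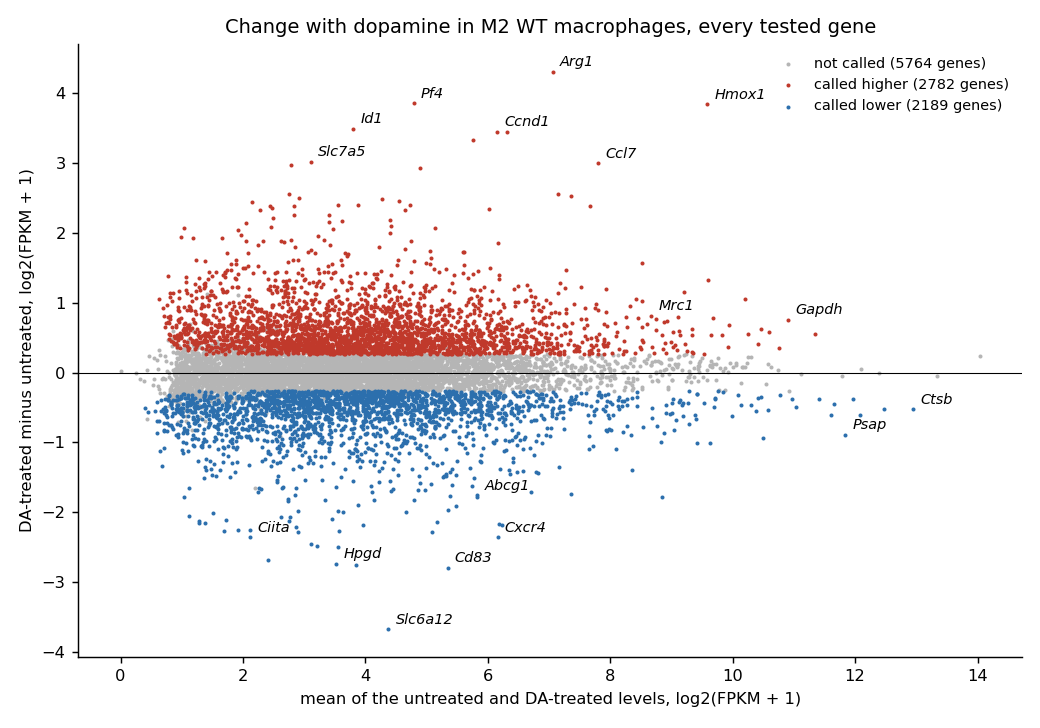
Change with DA in M2 WT BMDMs (y axis, log2 units) against the mean level (x axis, log2 of FPKM + 1) for the 10735 tested genes, each a point. The 2782 genes called higher and the 2189 called lower lie over the whole range of levels, and most of them within 1 log2 unit of 0.

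The largest rise was that of *Arg1*, which encodes arginase 1, the enzyme that splits arginine into ornithine and urea. It lies on chromosome 10 (chr10:24915207-24927470, GRCm38.p6) and *Arg1* went from 28.5, 29.9 and 28.5 FPKM in the untreated to 589, 600 and 586 in the DA-treated libraries, a change of 4.31 ± 0.04 (SE; adjusted p = 5.3e-18). *Pf4*, a platelet-type chemokine also made by macrophages, rose from 7.24, 5.43 and 6.16 to 105, 105 and 102 FPKM. *Hmox1*, heme oxygenase 1, had the largest gain in FPKM of any called gene, from 198, 203 and 202 to 2929, 2870 and 2914, a change of 3.85 ± 0.02 (adjusted p = 1.4e-20). In each of these the gap between the groups was far wider than the spread within a group. The other 12 of the 15 largest rises were *Id1*, an inhibitor of helix-loop-helix factors; *Ccnd1*, cyclin D1; *Slc7a8* and *Slc7a5*, the light chains of the amino acid exchangers LAT2 and LAT1; *Plau*, urokinase; the chemokines *Ccl7* and *Cxcl14*; *Msx3*, a homeobox gene; *Asns*, asparagine synthetase; *Tgfbi*, a TGF-β-induced matrix protein; *Mgl2*, a lectin; and *Cdh1*, E-cadherin. Their changes ran from 2.50 for *Cdh1* to 3.50 for *Id1*.

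The largest fall was that of *Slc6a12*, a transporter of betaine and GABA, from 70.9, 72.4 and 75.3 to 4.05, 4.73 and 5.70 FPKM (-3.67 ± 0.07, adjusted p = 1.8e-14). *Slc5a3*, which imports myo-inositol, another osmolyte, fell from 26.3, 26.5 and 27.7 to 3.85, 3.86 and 4.09. *Cd83*, a surface protein of activated antigen-presenting cells, went from 107, 102 and 108 to 13.4, 14.5 and 15.3. *Cxcr4*, the receptor for CXCL12, dropped from 165, 162 and 155 to 29.7, 30.2 and 31.9 FPKM. The ranges of treated and untreated libraries were again well apart. The list of the 15 largest falls was completed by *Ifitm6*, *Hpgd* (which inactivates prostaglandins), *Rbp4* (a retinol carrier), the chemokine *Cxcl5*, *Tcp11l2*, *Ciita* (the master regulator of MHC class II), *Mamdc2*, *Rassf4*, *Dio2* (a deiodinase that activates thyroid hormone), *Chil4* and *Tmem178*, and the 14 genes after *Slc6a12* had changes from -2.80 for *Cd83* to -2.26 for *Tmem178*.

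**Figure D2:**
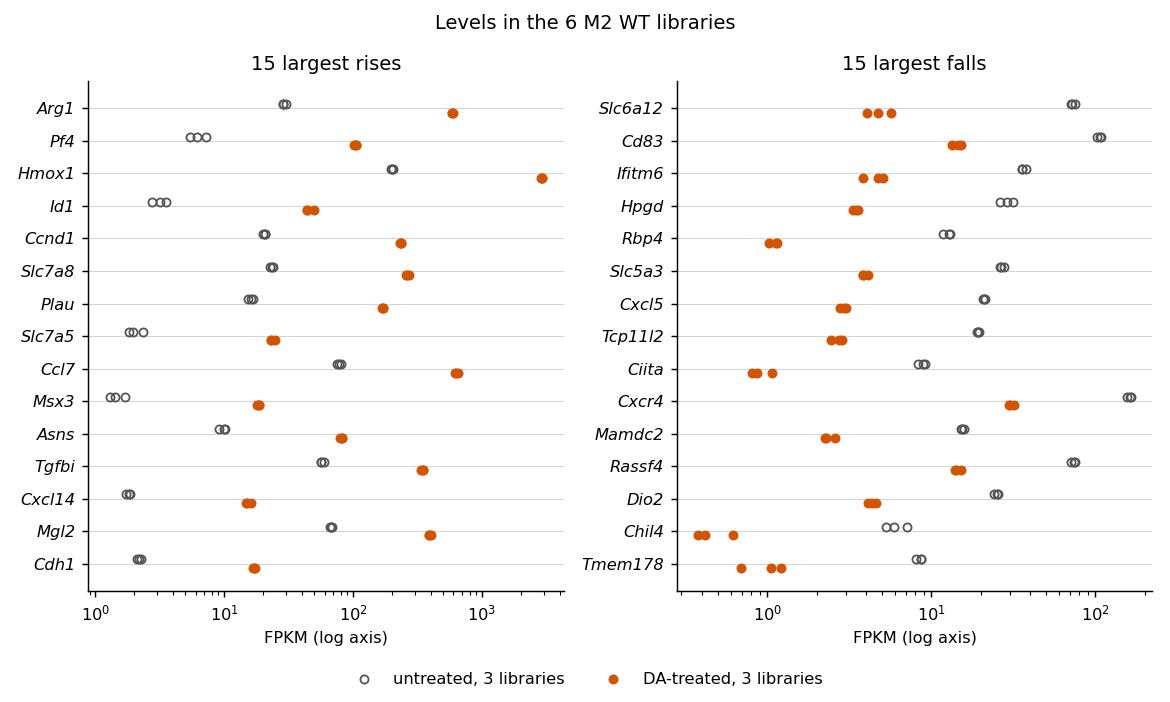
FPKM (log axis) of the 15 genes with the largest rises (left) and falls (right) in each of the 3 untreated (open) and 3 DA-treated (filled) M2 WT libraries. In all 30 genes the groups are separate, as in every called gene and in 76.0% of all tested genes. Arg1 lies at 28.5 to 29.9 against 586 to 600 FPKM.

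By FPKM rather than by fold, the largest falls were in abundant transcripts of the lysosome and of macrophage function: *Ctsb*, cathepsin B (9430, 9664 and 9345 to 6656, 6479 and 6598 FPKM), *Psap*, prosaposin (5043, 5042 and 4867 to 2693, 2680 and 2683), *Lyz2*, lysozyme, *Apoe* and *B2m*. After quantile normalization the changes of *Ctsb* and *Lyz2* were 0 and -0.18 and were no longer called. After *Hmox1*, the largest gains among called genes were those of *Gapdh*, *Actb*, *Tmsb10* and *Adam8*. *Gapdh*, often used as a reference gene, rose by 0.76 from 1499, 1508 and 1424 to 2521, 2481 and 2485 FPKM, and *Actb*, another one, rose by 0.55. The most abundant genes that were not called were *Fth1*, *Ftl1*, *Lgals3*, *Eef1a1* and *Gpnmb*, with changes of 0.23, -0.04, -0.0027, 0.05 and -0.05. Under quantile normalization *Lgals3* and *Gpnmb* had positive changes. *Fth1*, the heavy chain of ferritin, held 14995 to 15810 FPKM untreated and 18000 to 18311 with DA.

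Gene lists were described by the number of called members and by the median change, to be read against 25.9% higher, 20.4% lower and a median of 0.03 over all genes tested. Lists with at least 10 tested members ranged from a median of 1.05 for ATF4 targets to -0.52 for clock genes.

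**Figure D3:**
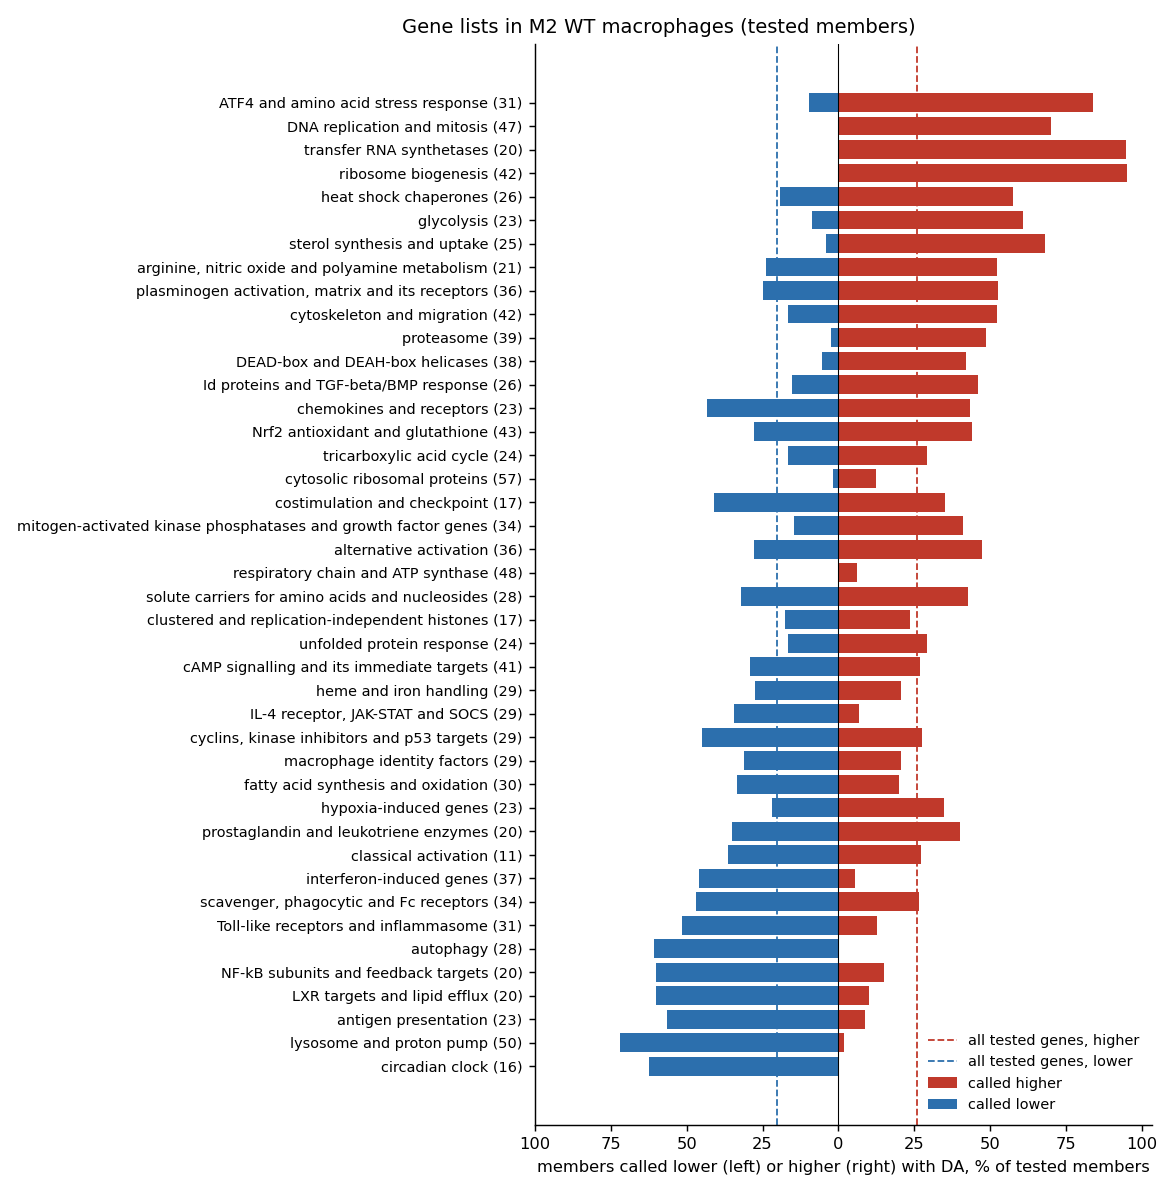
Share of the tested members of each gene list (number in brackets) called higher (right) or lower (left) with DA in M2 WT BMDMs, ordered by the median change. The dashed lines mark the shares among all tested genes, 25.9% and 20.4%; tRNA synthetases and ribosome biogenesis reach 95% higher, and lysosomal genes 72% lower.

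Transcripts for amino acid supply and for charging of tRNA mostly rose. The transcription factor ATF4 drives genes of amino acid import and synthesis when cells run short of amino acids or phosphorylate eIF2α. Of 31 tested genes of this list, 26 were higher and 3 lower (median 1.05). Transport was represented by *Slc7a5* (1.83, 1.95 and 2.32 to 24.7, 23.2 and 22.8 FPKM), by the arginine importer *Slc7a1* (3.90, 3.80 and 3.84 to 22.4, 22.0 and 22.1) and by the glutamine transporter *Slc1a5* (1.16 log2). Synthesis was represented by *Asns* (9.04, 9.99 and 10.2 to 82, 82.6 and 78.6 FPKM) and by the serine pathway, in which *Phgdh* went from 7.67, 6.81 and 7.06 to 45.7, 45.9 and 43.3, *Psat1* rose by 1.99 and *Psph* by 1.44. The mitochondrial one-carbon enzymes *Mthfd2* and *Shmt2* rose by 2.40 and 1.40. Each of these genes at least doubled. *Atf4* itself rose by 0.68, from 156, 154 and 152 to 248.6, 251 and 243 FPKM. Among its other targets, *Trib3* and *Chac1*, which degrades glutathione, rose by 2.14 and 2.44, whereas *Atf3* (-0.42), *Slc38a2* (-0.38) and *Slc7a11*, the cystine importer (-0.57), fell.

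Of 20 tested cytosolic tRNA synthetases, which join amino acids to their tRNAs, 19 were higher and 0 lower (median 0.89). *Iars* led with 21.1, 22.3 and 20.4 to 58.4, 60.6 and 59.4 FPKM, followed by *Yars*, *Aars* and *Vars*. *Qars* was the member that was not called, at -0.05. The ATF4 list holds 8 of these synthetases, so the 2 counts overlap.

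Promoters of these genes are shown because ATF4 binds, with C/EBP partners, a composite element of the form TGATGNAA. RefSeq promoters (GRCm38.p6, 250 bases before to 50 after a start, first listed start per gene) were matched for 8685 of the 10735 genes. Counting both strands, this element was in 2.28% of the 8685 and in 11 of 34 promoters of the 2 lists. It was searched after the values were seen. Of the 11 genes with it, *Asns*, *Chac1*, *Trib3*, *Iars*, *Yars*, *Tars*, *Aars* and *Gars* rose, *Atf3* and *Slc7a11* fell and *Nupr1* was not called. It was as frequent in genes that rose at least 2-fold (15 of 268 promoters) as in those that fell at least 2-fold (12 of 210). The stretches before the start of 3 genes that rose and 1 that fell read as follows on the strand of the gene, with the element, or its reverse complement, in capitals; its first base is at -23 in *Asns* (chr6:7693210-7693260, minus strand), -193 in *Chac1* (chr2:119351021-119351080, plus strand), -30 in *Gars* (chr6:55037943-55038000, plus strand) and, for the one nearest to the start, -47 in *Slc7a11* (chr3:50443629-50443688, minus strand).
Asns: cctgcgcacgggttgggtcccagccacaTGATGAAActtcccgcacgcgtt
Chac1: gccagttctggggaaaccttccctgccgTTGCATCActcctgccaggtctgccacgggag
Gars: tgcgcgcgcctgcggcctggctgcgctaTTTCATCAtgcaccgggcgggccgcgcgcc
Slc7a11: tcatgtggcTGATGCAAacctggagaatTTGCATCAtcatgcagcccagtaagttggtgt
*Slc7a11* shows 2 matches in this window and its level fell by 0.57, so a match did not go with a rise in every gene. A match is a description of the letters and not a binding site.

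Genes that make ribosomes rose almost without exception. Of 42 tested ribosome biogenesis genes, which process ribosomal RNA and assemble subunits in the nucleolus, 40 were higher and 0 lower (median 0.86). The core proteins of box C/D particles, *Nop58* (17.6, 18.7 and 18.1 to 56.8, 59.7 and 59.3 FPKM) and *Nop56* (33.9, 34.6 and 32.7 to 91.6, 97.5 and 93.7), led, followed by *Dkc1* and *Tsr1*. *Polr1a*, the largest subunit of RNA polymerase I, rose by 1.08, and *Myc*, a driver of this programme, from 22.7, 23.7 and 21.9 to 66.7, 66.1 and 63.5 FPKM. The structural proteins of the ribosome moved little: 7 of 57 were higher and 1 lower, with a median of 0.10. Of 39 proteasome genes, 19 were higher and 1 lower (median 0.25). The 1 that fell was *Psmb10*, an immunoproteasome subunit (-0.65), while *Psmb5*, the constitutive counterpart of another such subunit, rose by 0.58.

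Genes of DNA replication were among the clearest rises. Of 47 tested genes of DNA replication and mitosis, 33 were higher and 0 lower (median 0.89). All 6 subunits of the replicative helicase were higher: *Mcm5*, with the largest change, went from 9.41, 8.64 and 8.87 to 53.5, 54.6 and 53.3 FPKM, and *Mcm2*, *Mcm4*, *Mcm7*, *Mcm3* and *Mcm6* rose by 1.73 to 2.18. *Uhrf1*, which maintains DNA methylation, rose by 2.40 and the licensing factor *Cdc6* by 1.97. Some members that act in mitosis or mark dividing cells were not called: *Mki67* changed by 0.25 (3.09, 3.42 and 3.45 to 4.08, 4.18 and 4.11 FPKM), *Cdc20* by -0.0029 and the mitotic cyclins *Ccnb1* and *Ccnb2* by -0.16 and -0.01. Among cyclins, kinase inhibitors and p53 targets, 8 of 29 were higher and 13 lower. *Ccnd1* rose from 20.1, 20.7 and 20.6 to 231, 237 and 234 FPKM and *Cdk6* by 1.03, and the antiproliferative genes *Btg2* and *Btg1* fell by 2.21 and 1.70 and the inhibitors *Cdkn1c* and *Cdkn1b* by 1.59 and 0.66. The p53 target *Cdkn1a* went the other way and rose by 0.96.

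Transcripts for sterol synthesis and for sterol export mostly moved in opposite directions. Of 25 tested genes of sterol synthesis and uptake, which SREBP2 controls, 17 were higher and 1 lower (median 0.44), among them the squalene epoxidase *Sqle* (12.96, 12.8 and 12.99 to 31.1, 29.6 and 30.7 FPKM). Of 20 targets of the oxysterol receptor LXR and genes of lipid efflux, 2 were higher and 12 lower (median -0.41). The cholesterol exporter *Abca1* fell from 12.7, 12.6 and 13.6 to 2.33, 2.36 and 2.33 FPKM, and *Abcg1* from 103, 104 and 104 to 30.3, 29.1 and 30.4. *Mylip*, which degrades the LDL receptor, fell by 1.11 and *Nr1h3*, the gene of LXRα, by 1.02. The groups did not overlap in any of these genes, as in every called gene. In glycolysis, 14 of 23 genes were higher and 2 lower (median 0.45), from *Slc16a1*, a lactate transporter (1.01), to *Hk2* (0.28). Of 48 nuclear genes of the respiratory chain, 3 were higher and 0 lower. Fatty acid genes were mixed, with 6 of 30 higher and 10 lower, among them the lipid carriers *Fabp4* (-1.72) and *Fabp5* (-0.998).

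Most listed lysosomal and autophagy genes fell. Of 50 tested genes of the lysosome and its proton pump, 1 was higher and 36 were lower (median -0.46), and the list as a whole went from 7.83% ± 0.06 (SD, n = 3) of the FPKM sum in untreated to 5.72% ± 0.02 in DA-treated libraries. The exact permutation test of these shares gave p = 0.1, the smallest that 3 against 3 libraries allow. Cathepsins led the fall, with *Ctsc* at 70.6, 65.5 and 66.3 to 23.6, 24.2 and 25.6 FPKM, and *Ctsk* and *Ctsh* behind it. The exception was *Ctsl*, cathepsin L, which rose from 671, 648 and 675 to 964, 980 and 952. *Tfeb*, a regulator of lysosomal genes, fell by 0.50. Of 28 autophagy genes, 0 were higher and 17 lower (median -0.37). They included the ubiquitin-like proteins *Gabarapl1* (-0.93) and *Map1lc3b* (-0.67), and the kinase that starts autophagy, *Ulk1* (-0.78). Among the 18 tested genes with the symbol stem Atg, some of them outside this list, 2 were higher and 9 lower. *Ncoa4*, the receptor that takes ferritin to autophagy, fell from 143, 146 and 144 to 54.0, 52.9 and 52.7 FPKM.

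Within the M2 programme, genes split. Of 36 tested genes of alternative activation, 17 were higher and 10 lower (median 0.06). Besides *Arg1*, the rises included *Mgl2* (66.5, 67.7 and 68.5 to 391, 405 and 389 FPKM), *Msr1*, a scavenger receptor (27.3, 27.9 and 28.03 to 143, 146 and 147), *Stab1*, *Tgm2* and *Mrc1*, the mannose receptor (303, 299 and 315 to 541, 540 and 532). The falls included equally typical genes of IL-4-treated cells: *Retnla*, which encodes RELMα, went from 105, 103 and 104 to 28.4, 29.3 and 30.3, *Ccl22* from 6.64, 7.89 and 7.11 to 0.68, 0.78 and 0.71, and *Pdcd1lg2*, the gene of PD-L2, fell by 1.26. *Pparg*, a nuclear receptor that IL-4 induces, fell from 96.4, 98.7 and 96.3 to 48.1, 49.1 and 45.3 FPKM. *Chil3*, *Socs1* and *Il10* rose by 0.44, 0.36 and 1.17, the last from 1.11, 1.5 and 1.07 to 4.27, 4.24 and 3.49 FPKM. Of the receptor chains for IL-4 and IL-13, *Il13ra1* fell by 0.35, the shared chain *Il2rg* by 0.47 and the decoy receptor *Il13ra2* by 1.28, and *Il4ra* (-0.01) and *Stat6* (0.09) were not called.

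Transcripts for polyamine synthesis, the pathway that follows arginase, rose at several steps. Of 21 genes of arginine, nitric oxide and polyamine metabolism, 11 were higher and 5 lower. *Odc1*, ornithine decarboxylase, went from 19.4, 17.9 and 21.4 to 47.5, 48.8 and 48.2 FPKM, and *Srm*, spermidine synthase, from 24.5, 26.5 and 25.4 to 82.6, 90.2 and 86.4. *Sat1*, which acetylates polyamines for breakdown and export, fell from 291, 297 and 309 to 86.8, 87.9 and 90.4, and *Oaz1*, an inhibitor of ornithine decarboxylase, fell by 0.48. *Arg2*, the mitochondrial arginase, changed against *Arg1* and fell by 1.08.

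Chemokines divided into risers and fallers even among neighbours on chromosome 11. Of 23 chemokine and receptor genes, 10 were higher and 10 lower. *Ccl2* (chr11:82035577-82037452) rose from 90.8, 91.5 and 82.9 to 462, 460 and 477 FPKM and its neighbour *Ccl7* (chr11:82045712-82047525) from 74.7, 78.3 and 80.9 to 627, 650 and 619. Further along the same cluster (GRCm38.p6), *Ccl11* (chr11:82057832-82062955) fell by 1.05, *Ccl12* (chr11:82101845-82103399) rose by 0.77 and *Ccl8* (chr11:82115185-82116799) fell from 32.1, 30.7 and 33.2 to 5.20, 6.17 and 7.72. *Ccl3* and *Ccl4* rose by 0.67 and 1.34 and *Ccl5*, *Ccl9* and *Ccl6* fell by 0.81, 0.45 and 0.32. The annotated spans of *Ccl3* and *Ccl4* overlap, and whether reads were counted by strand is not given in the sources used here. Among receptors, *Ccr1* rose from 4.96, 4.27 and 5.07 to 25.3, 24.2 and 25.5 FPKM, and *Cxcr4* had the largest fall.

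Genes of innate sensing and antigen presentation were mostly lower. Of 31 Toll-like receptor and inflammasome genes, 16 were lower and 4 higher (median -0.28). *Tlr9*, the sensor of unmethylated DNA, went from 17.98, 17.98 and 18.4 to 4.37, 4.38 and 4.46 FPKM, the co-receptor *Cd14* from 159, 154 and 152 to 57.3, 56.2 and 58.7, and *Il1b* from 2.67, 2.73 and 3.03 to 0.11 in each of the 3 DA-treated libraries. *Nlrp3* went against the list and rose by 1.14. Of 20 NF-κB subunits and feedback targets, 12 were lower and 3 higher, but *Tnf*, an inflammatory cytokine, rose from 6.74, 7.09 and 5.85 to 15.1, 14.0 and 14.4 FPKM. Of 23 antigen presentation genes, 13 were lower and 2 higher (median -0.42). *Ciita* fell from 8.33, 8.91 and 9.14 to 0.81, 0.86 and 1.07 FPKM, and the class II genes H2-Eb1, H2-Ab1, H2-Aa and *Cd74* fell by 0.86 to 1.12. In costimulation, 6 of 17 rose and 7 fell, with *Havcr2* (TIM-3) at 2.06 and *Cd83* at -2.80 as the ends. Among receptors for uptake, 9 of 34 rose and 16 fell, the complement component *C3* by 1.77. Genes of near-identical sequence, such as those of the MHC, can share reads.

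Genes of oxidant defence changed in both directions. Of 43 tested genes listed under NRF2 and glutathione, 19 were higher and 12 lower (median 0.13). *Chac1*, *Trib3* and *Slc7a11* of this list are also in the ATF4 list, so the counts overlap. The enzyme that makes the first step of glutathione synthesis rose in both subunits, *Gclm* from 10.2, 10.7 and 9.72 to 54.9, 57.8 and 53.03 FPKM and *Gclc* by 1.10, and the thioredoxin reductase *Txnrd1* rose by 0.83. The groups were separate in these, as in every called gene. *Ephx1* (50.1, 51.6 and 50.6 to 14.9, 15.3 and 15.3 FPKM), *Idh1* (-1.44), the glutathione peroxidases *Gpx3* (-1.07) and *Gpx1* (-0.83) and *Nfe2l2*, the gene of NRF2 (-0.80), fell. NRF2 binds antioxidant response elements of the core TGACNNNGC. This core was in 15.1% of the 8685 promoters and in 11 of the 39 matched promoters of the list. Its share was 15.6% among promoters of genes called higher and 14.9% among those called lower, given without a test. The *Gclm* promoter holds it on the reverse strand with its first base at -134, here in capitals (chr3:122245395-122245455, plus strand, GRCm38.p6).
Gclm: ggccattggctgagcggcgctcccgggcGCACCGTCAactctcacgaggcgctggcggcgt
Of 29 heme and iron genes, 6 were higher (20.7%) and 8 lower (27.6%), close to the shares among all genes. With *Hmox1* rose the iron exporter *Slc40a1* (2.37, 2.77 and 2.51 to 6.95, 7.60 and 7.60 FPKM) and the heme transporter *Slc48a1* (152, 155 and 152 to 309, 306 and 299). The 8 that fell included *Ncoa4*, with the largest fall of the list (-1.42), and *Bach1*, the repressor of *Hmox1* (-0.71).

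Heat shock chaperones gave a mixed picture by class. Of 26 tested, 15 were higher and 5 lower (median 0.49). The mitochondrial chaperones *Hspd1* and *Hspa9* rose by 1.04 and 0.997 and the cytosolic chaperonin subunit *Cct3* by 0.98. The stress-inducible HSP70 genes fell: *Hspa1b* went from 7.44, 8.07 and 7.08 to 1.61, 1.76 and 1.75 FPKM and *Hspa1a* from 3.30, 3.15 and 3.23 to 0.79, 0.30 and 0.78. These 2 are near-identical copies, so their reads cannot be split with certainty.

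In the TGF-β and BMP list, 12 of 26 were higher and 4 lower. *Id1* rose from 3.53, 2.76 and 3.19 to 43.7, 50.1 and 43.9 FPKM, *Id3* by 2.10, and the inhibitory Smads *Smad6* and *Smad7* by 1.60 and 1.10. Plasminogen activation and matrix genes had 19 of 36 higher and 9 lower, with *Plau* rising from 15.4, 16.0 and 16.7 to 168, 170 and 171 FPKM. Among kinase phosphatases and growth factor genes, 14 of 34 were higher and 5 lower. The ERK targets *Etv5*, *Dusp6* and *Spred2* rose by 1.89, 1.42 and 1.10. Of 42 cytoskeletal genes, 22 were higher and 7 lower, led by the tubulins *Tubb6*, *Tubb5* and *Tuba1b* at 1.15 to 1.35.

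*Clock* output genes fell. Of 16 tested circadian genes, 0 were higher and 10 lower (median -0.52). *Dbp* went from 3.57, 4.40 and 4.03 to 0.98, 0.91 and 0.81 FPKM, and *Tef*, *Nr1d2* and *Per1* fell by 1.12, 0.76 and 0.68. The core activators *Clock* and *Arntl*, at -0.02 and -0.11, were not called.

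Of 37 interferon-induced genes, 17 were lower and 2 higher (median -0.23). *Irgm1* fell from 43.7, 45.4 and 46.5 to 25.5, 25.1 and 26.1 FPKM. Genes of cAMP signalling and its immediate targets kept near the background in number, with 11 of 41 higher and 12 lower (median -0.04). The regulatory subunits of protein kinase A, *Prkar2b* and *Prkar2a*, rose by 1.14 and 0.98. Of the immediate targets in the list, *Thbs1* rose by 0.94 and *Fos* and *Dusp1* by 0.33 each. Adenylyl cyclase 3 (*Adcy3*, -1.09) fell, as did the immediate targets *Per1* (-0.68), *Crem* (-0.63) and *Nfil3* (-0.77). The cAMP response element TGACGTCA, on either strand, was in 3.39% of all 8685 promoters, in 3.08% of those of genes called higher and in 2.79% of those called lower. For the shorter core TGACG, which every full element also holds, the shares were 33.2%, 35.4% and 29.7%. They were given without a test. The E-box CACGTG was in 10.7%, 11.6% and 9.90%, the core ACGTG of the hypoxia element, which the E-box contains, in 26.7%, 28.1% and 23.9%, and the TATA box TATAAA in 6.64%, 7.29% and 7.79%.

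Among DEAD-box and DEAH-box helicases, 16 of 38 were higher and 2 lower (median 0.19), and among genes of the IL-4 receptor and JAK-STAT pathway 2 of 29 were higher and 10 lower (median -0.07). Members of the other lists were called in both directions. Of 24 genes of the unfolded protein response, 7 were higher and 4 lower (median 0.01), of 23 hypoxia-induced genes 8 and 5, of 24 tricarboxylic acid cycle genes 7 and 4, of 17 histone genes 4 and 3, of 20 prostaglandin and leukotriene genes 8 and 7, of 29 macrophage identity factors 6 and 9, of 28 amino acid and nucleoside transporters 12 and 9 and of 11 classical activation genes 3 and 4. The median of the unfolded protein response and of the histones was below 0 after median-of-ratios scaling and after quantile normalization, and that of the respiratory chain after quantile normalization. Mitochondrially encoded genes were not analysed here.

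The question whether these changes need DRD5 was asked by the same comparison in DRD5-/- cells. There, 432 genes (4.02% of 10735) were called, 362 higher (3.37%) and 70 lower (0.652%), and the median absolute change over all genes was 0.09 against 0.27 in WT cells. The count of 70 was unstable: it became 42 or 43 without untreated DRD5-/- replicate 2 or 3, 41 without DA-treated DRD5-/- replicate 1 or 3, and 127 after median-of-ratios scaling. The difference between the 2 effects, tested in the same fit, was called for 4636 genes (43.2%): in 2448 (22.8%) the effect in WT was the more positive and in 2188 (20.4%) the more negative. Of the 4971 genes called in WT cells, 3963 (79.7%) had effects that differed, and for the other 1008 a difference was not detectable at this cutoff. Of the 432 genes called in DRD5-/- cells, 255 (59.0%) were also called in WT cells, where 46.3% of all tested genes were called. They were 5.13% of the WT calls. Of the 255, 98 changed in the same and 157 in the opposite direction, 128 of the latter being higher in DRD5-/- cells. As 362 of the 432 DRD5-/- calls were higher, the directions were unequal from the start, and the split was not tested against that.

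**Figure D4:**
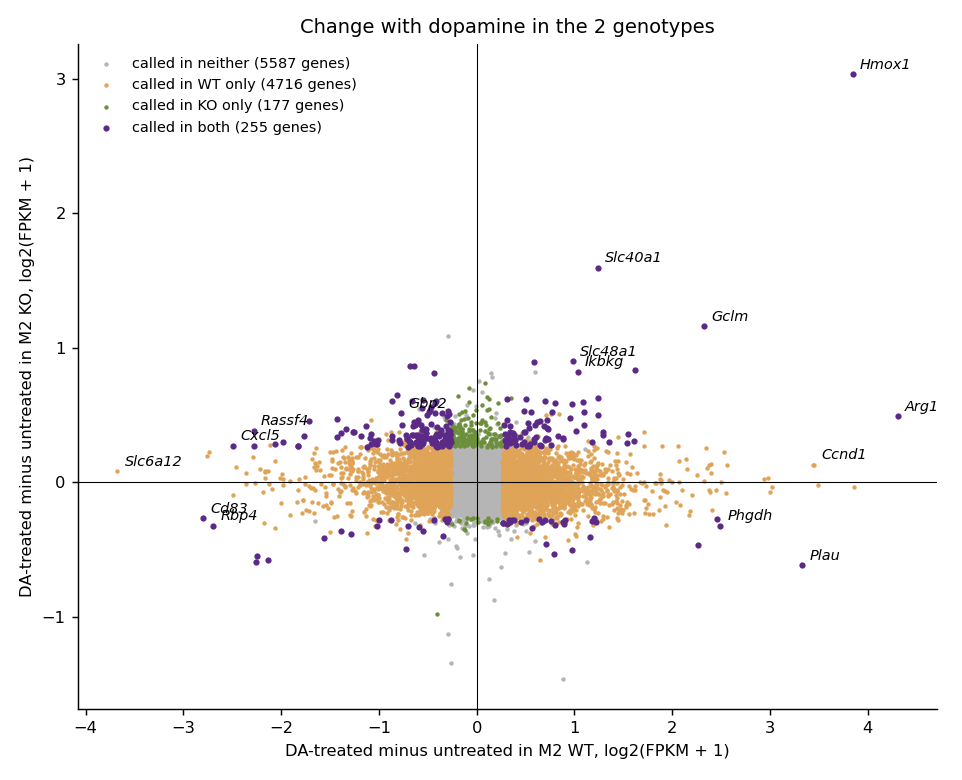
Change with DA in M2 WT (x axis) and M2 DRD5-/- BMDMs (y axis), in log2 units, for the 10735 tested genes, coloured by the call in each genotype. The points stretch along the x axis, and Hmox1, with 3.85 and 3.03, lies farthest from 0 on the y axis.

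*Hmox1* was the gene whose response was largest in DRD5-/- cells. In these cells *Hmox1* rose from 241, 244 and 243 to 1957, 2009 and 2016 FPKM (3.03 ± 0.02, adjusted p = 3.5e-19), and the effect in WT cells was larger by 0.81 ± 0.03. Genes of heme, iron and glutathione were among the others called higher in both genotypes. *Slc40a1* rose by 1.60 in DRD5-/- and 1.24 in WT cells, *Slc48a1* by 0.90 and 0.99, and neither difference was called. For *Gclm* the rise of 1.16 in DRD5-/- cells (10.5, 10.2 and 10.3 to 25.3, 23.9 and 23.7 FPKM) was smaller than that of 2.33 in WT cells (difference 1.17 ± 0.06). *Ikbkg*, the regulatory subunit of the IκB kinase, rose by 0.82 and 1.03. Of the 43 NRF2 and glutathione genes, 10 were called higher and 0 lower in DRD5-/- cells.

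*Arg1* rose in DRD5-/- cells from 28.4, 29.3 and 27.8 to 42.02, 41.5 and 37.9 FPKM (0.49), a difference of 3.82 ± 0.05 from the effect in WT cells. *Cd83* and *Rbp4* fell in both, with changes of -0.27 and -0.32 in DRD5-/- cells, against -2.80 and -2.69 in WT cells. With opposite signs, *Plau* fell in DRD5-/- cells from 26.5, 27.6 and 26.1 to 16.3, 18.6 and 16.5 FPKM, where it rose in WT cells, and *Phgdh* and *Mcm5* fell by 0.32 and 0.27. *Cxcl5* and *Rassf4* rose in DRD5-/- cells by 0.27 and 0.38 and fell in WT cells. The effects of all these genes differed between genotypes in the same fit.

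By list, ribosome biogenesis, tRNA synthetases and sterol synthesis had no member called in DRD5-/- cells, and the effects differed in 38 of 42, 19 of 20 and 14 of 25 members, always with the more positive effect in WT cells. For lysosomal genes the effects differed in 35 of 50, in 33 of them with the more negative effect in WT cells. Interferon-induced genes had the most called members of any list in DRD5-/- cells, where 20 of 37 were higher and 0 lower (median 0.33), with 17 lower and 2 higher in WT cells. *Gbp2* rose from 4.18, 4.06 and 4.74 to 6.23, 6.65 and 6.91 FPKM in DRD5-/- cells and fell from 7.29, 7.48 and 7.10 to 3.80, 3.38 and 4.44 in WT cells. *Ifit3* and *Ifi204* also had opposite signs, with 0.61 and 0.32 in DRD5-/- and -0.55 and -0.79 in WT cells. The untreated levels differed between the genotypes: the list took 0.289% ± 0.001 (SD, n = 3) of the FPKM sum in untreated WT and 0.198% ± 0.002 in untreated DRD5-/- libraries, and 0.245% ± 0.003 and 0.233% ± 0.001 with DA. The part of the different start in the result was not tested.

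The effect of DA was also set against that in M1 WT cells, in a fit of all 24 libraries. This fit covered the 10732 of the 10735 tested M2 genes that were also listed for M1 libraries. Genes too low in M2 cells were thus left out, whatever their level in M1 cells. DA changed 1523 genes (14.2%) in M1 WT cells, 489 higher and 1034 lower, and its effect differed between M2 WT and M1 WT cells for 5036 genes (46.9%). In 3092 of these (61.4%) the effect was the more positive in M2 cells, a share that was 51.0% after median-of-ratios scaling and 48.4% after quantile normalization, so this split depends on the scaling. In this fit 5067 genes were called in M2 cells, 2820 higher and 2247 lower, and 1523 in M1 cells. Called in both were 984, which is 19.4% of the M2 and 64.6% of the M1 calls. Of these, 314 moved in the same and 670 in the opposite direction, a split not tested against the unequal counts of higher and lower calls.

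The largest differences toward M2 cells were those of *Id1*, *Pf4*, *Asns*, *Slc7a5* and *Slc7a8*. *Id1* and *Asns* fell in M1 WT cells, with mean levels of 2.46 and 1.26 FPKM for *Id1* and 11.3 and 7.74 for *Asns*, and *Slc7a8*, at 232 and 247, was already near its DA-treated M2 level. In the other direction, *Slc6a12*, *Tmem178*, *Dio2*, *Ifitm6* and *Rbp4* fell in M2 cells, whereas in M1 cells the first 3 of these were called higher and the last 2 were not called. *Slc6a12* had means of 4.58 without and 6.25 FPKM with DA in M1 cells, and *Rbp4*, with means of 0 and 0.017, could not fall there. By list, ribosome biogenesis had 0 members higher and 22 of 42 lower in M1 cells, tRNA synthetases 0 and 9 of 20 and heat shock chaperones 0 and 20 of 26, against the rises in M2 cells. In sterol synthesis both went the same way, with 15 of 25 higher and 1 lower in M1 cells, and the effects differed in 7 of the 25. *Hmox1* rose in both: in M1 cells from a mean of 3806 to 9920 FPKM, a change of 1.38.

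**Figure D5:**
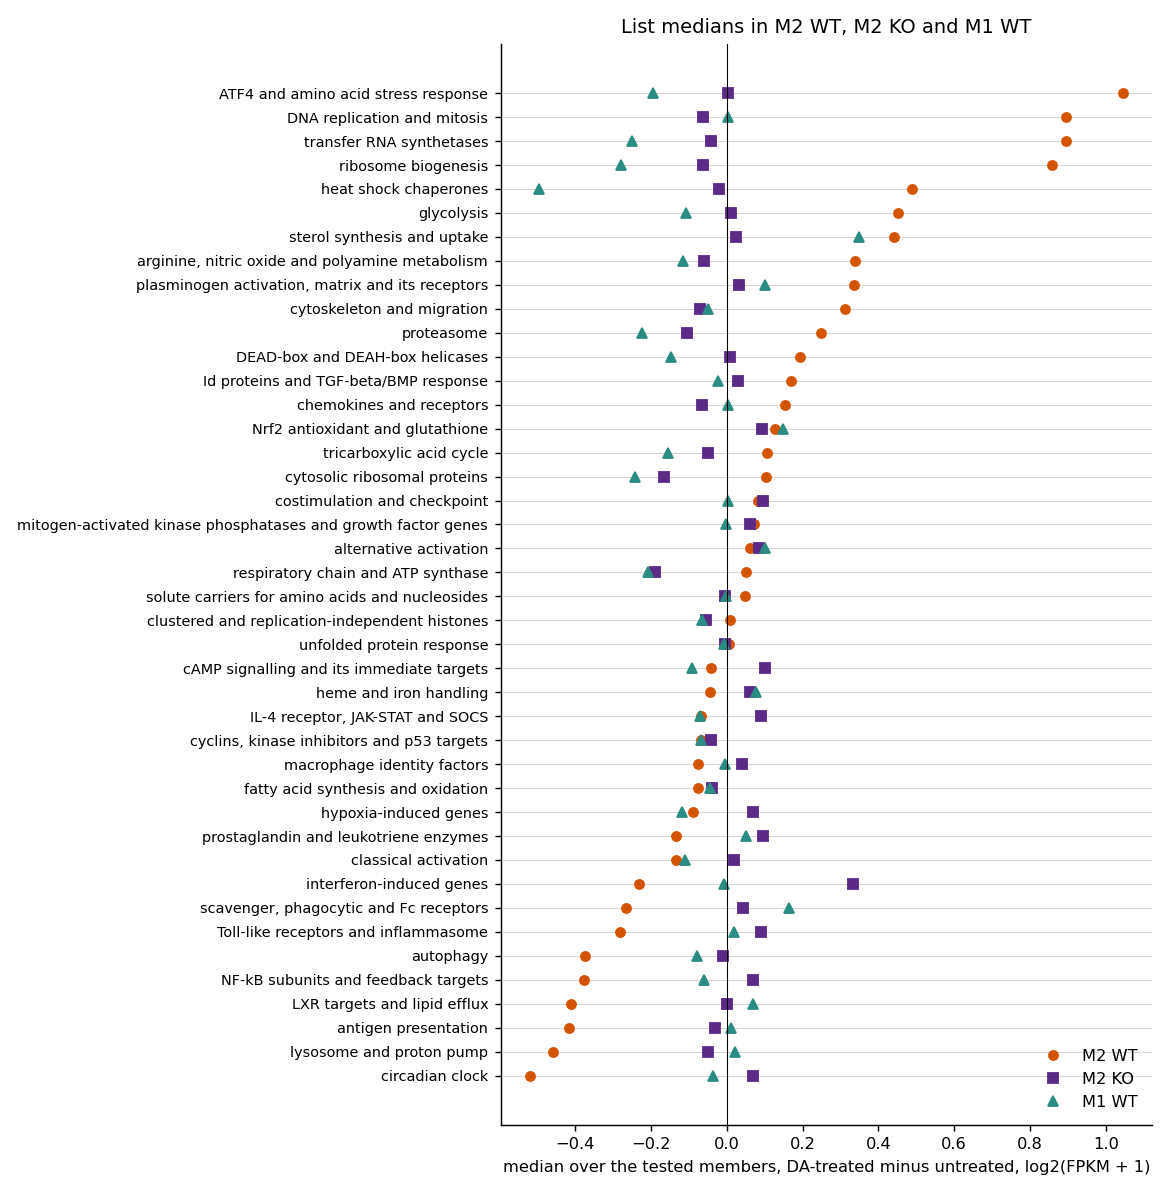
Median change with DA over the tested members of each list in M2 WT (circles), M2 DRD5-/- (squares) and M1 WT BMDMs (triangles), in log2 units; M1 medians cover the members found in both sets of files. Ribosome biogenesis reads 0.86, -0.06 and -0.28, and interferon-induced genes -0.23, 0.33 and -0.01.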

How the data were processed

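Bone marrow-derived macrophages were sequenced on the BGISEQ-500 platform, and the authors deposited 1 table of FPKM per library, normalized to transcript length and mapped fragments. The study's methods name HISAT2, the submitters' processing notes Bowtie2 2.2.5 and GRCm38.p6. The tables hold no counts, so the depth of a library is unknown and no counting error could be given.

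Groups were taken from the labels. From the deposited FPKM, log2(FPKM + 1) was computed for genes with at least 1 FPKM in at least 3 of the 12 M2 libraries. The 4 group means were fitted in limma 3.58.1 (R 4.3.3) with an intensity trend. Calls needed a 1.2-fold change or more and a Benjamini-Hochberg adjusted p below 0.001. The same fit gave the difference between genotypes, and a fit of all 24 libraries that between M2 and M1 cells. The procedure was tested on simulated data.

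The 15 largest rises and falls, the 5 largest by FPKM and up to 4 members per list were named by rule. Other genes were named after their values were seen. The members and the 45 gene lists were chosen with earlier results of these data known, and the element TGATGNAA was added after seeing values. Promoters came from RefSeq, matched by gene identifier. Alternatives covered the filter, pseudocount, scaling, model, thresholds, replicate block and the omission of each library.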

Additional observations from a re-analysis of the deposited data

Results flagged for a closer look

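The effect of DA differed between M2 WT and M2 DRD5-/- cells for 4636 genes, tested as an interaction in the limma fit of 12 libraries. Among the named genes with opposite signs in the genotypes, the effect in WT minus that in DRD5-/- cells was 3.94 for *Plau*, 2.81 for *Phgdh*, 2.73 for *Mcm5*, -2.76 for *Cxcl5* and -2.66 for *Rassf4*. Among those called in the same direction in both, it was 3.82 for *Arg1*, 1.17 for *Gclm*, 0.814 for *Hmox1*, -2.53 for *Cd83* and -2.37 for *Rbp4*. Of the 187 named genes called in M2 WT cells, 180 had effects that differed between the genotypes. Among all 4971 genes called in M2 WT cells, 3963 (79.7%) had such effects. The named genes were picked mostly by the size of their changes and some by their calls in DRD5-/- cells, so their count only follows that choice. Every gene in these counts was tested with 3 libraries per group.

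Between M2 WT and M1 WT cells the effect differed for 5036 genes. The effect in M2 minus that in M1 cells was 4.13 for *Id1*, 3.58 for *Pf4*, 3.44 for *Asns*, 3.37 for *Slc7a5* and 3.35 for *Slc7a8*. In the other direction it was -4.05 for *Slc6a12*, -3.08 for *Tmem178*, -3.07 for *Dio2*, -2.96 for *Ifitm6* and -2.72 for *Rbp4*. With means of 0 and 0.017 FPKM in M1 cells, *Rbp4* could not fall there, so its value says nothing of a response in M1 cells. Groups held 3 libraries each, and single libraries were not tested for standing apart.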

How the results depend on the processing

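Of 192 named genes, 186 kept their direction and their side of the cutoff in M2 WT cells under each of the alternatives other than a 2-fold cutoff and limma's treat test against 1.2-fold, with 18 of the 192 not tested at a minimum of 5 FPKM. The exceptions arose with quantile normalization, where *Ctsb* (0), *Lyz2* (-0.18) and *Ndufa9* (0.25) lost the call, *Eef1a1* (0.41) gained it, and the uncalled *Lgals3* (0.18) and *Gpnmb* (0.34) changed sign. *Lgals3* also changed sign without M2 WT replicate 1 (0.00189) or replicate 3 (0.0024), its range without 1 library being -0.01249 to 0.0024. With a 2-fold cutoff 626 genes were called in M2 WT cells, 357 higher and 269 lower, and with the treat test 2678, 1494 higher and 1184 lower. Of the calls after median-of-ratios scaling, 4803 of 4968 were shared with those reported, and after quantile normalization 4557 of 4885. The share of higher calls was 56.0%, 52.6% and 49.4% in that order. Leaving out 1 library gave 4678 to 4822 genes in M2 WT cells (2610 to 2711 higher, 2063 to 2111 lower), 304 to 388 in DRD5-/- cells (263 to 309 higher, 41 to 79 lower) and 4296 to 4501 with differing effects (2277 to 2403 and 2012 to 2098). The 70 genes lower in DRD5-/- cells became 42 without untreated DRD5-/- replicate 2, 43 without replicate 3, and 41 without DA-treated DRD5-/- replicate 1 or replicate 3. They were 36 with no expression filter, 127 after median-of-ratios scaling and 179 at an adjusted p of 0.05, where 719 genes were called in DRD5-/- cells in all. Libraries with the same replicate number did not deviate together (mean residual r -0.016, against 0.00801 for other numbers), so the number was not taken as a pairing, and the replicate block gave 4906 genes in M2 WT cells, 373 in DRD5-/- cells, 4462 with effects that differed between genotypes and 4920 between stimuli. Without counts, the depth behind low FPKM values cannot be given.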

Other observations

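Gene families were also read from the stem of the symbol. Those given here were picked from 169 stems after their values were seen and are given without a test. Some of their genes are also members of the lists. With DA in M2 WT cells, 9 of 10 tested Exosc genes, which encode the RNA exosome, were higher and 0 lower, as were 31 of 45 Eif genes of translation initiation, 30 of 49 Mrpl genes of the large mitochondrial ribosomal subunit, 15 of 19 Nup genes of the nuclear pore, 8 of 13 Lsm genes of RNA processing, 6 of 10 Srsf splicing factors and 6 of 8 Haus genes of the mitotic spindle. Of 29 Mrps genes of the small mitochondrial ribosomal subunit, 12 were higher and 2 lower. The share of genes called higher among all tested was 25.9%.

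Lower were 10 of 13 Ifi genes, with 1 higher, where 20.4% of all tested genes were called lower. In DRD5-/- cells 7 of the 13 were higher, where 3.37% of all tested genes were called higher. Of 13 Clec genes, which encode C-type lectins, 7 were lower and 3 higher, of 9 Anxa genes, the annexins, 5 and 1, of 9 Arid genes 5 and 0 and of 12 Mmp genes, the matrix metalloproteinases, 7 and 4. *Calca*, which encodes calcitonin and calcitonin gene-related peptide, was listed at 0 in all 3 untreated M2 WT libraries and at 3.11, 3.03 and 3.44 FPKM in the DA-treated ones.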
